A study of Mus musculus with 92 samples.

Results

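Variation of gene expression between blastomeres of the same mouse id, between mouse ids and between injected microRNAs was measured in 8-cell mouse embryos. A blastomere is one of the cells made by the cleavage divisions of the fertilized egg. Zygotes (wild type, C57BL/6N, from in vitro fertilization per the sample titles) had been microinjected with Let7d, Let7e, mi699a-5p or a negative control (NC), cultured to the 8-cell stage and dissociated, and each cell was made into a Smart-seq2 library. Smart-seq2 copies full-length cDNA of a single cell and carries no molecular identifiers, so reads include amplification copies. All cell columns of the counts table were taken, 82 of the 92 samples in the labels, and the other 10 were not analysed here. One pair of columns of Let7d mouse id 2 differed by about as much as sampling noise gives (1.05 chi-square units per gene, against at least 28.7 for any other pair of columns) and was summed, which left 81 cells. Let7d had 18 cells in 3 mouse ids, Let7e 20 cells in 4, mi699a-5p 21 cells in 4 and NC 22 cells in 3. Mouse id 3 of Let7e (Let7e 3) had only 2 cells, and the other ids had 4 to 8. What a mouse id stands for, an embryo or an animal, is left unsaid in the labels.

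For each gene with a mean of at least 20 CPM (counts scaled to the same total reads in every cell), the variance of log2(CPM + 1) was split into treatment, mouse id within treatment and blastomere within mouse id. Of 7886 genes in the table, 238 on chromosomes X and Y and 8 without a chromosome were left out, and 5552 of the rest reached the limit, 13 of them on the mitochondrial genome. Nfatc3, at 20.0 CPM, lay just inside the limit, and Rhpn2, at 19.99 CPM, just outside. A cell held 1575609 to 4950404 reads (median 2736612) and 5562 to 7497 genes with a read (median 6965).

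At the 8-cell stage the mouse embryo runs on its own transcripts while some oocyte RNA remains, and it is about to compact, when blastomeres flatten against each other and become polarized. Outer cells then tend to become trophectoderm, which forms the placenta, and inner cells the inner cell mass, which forms the fetus. Blastomeres of this stage are not identical: they divide out of step, and part of the difference between cells comes from bursts of transcription and from uneven capture of RNA. Let-7 microRNAs bind target transcripts mainly through their seed, bases 2 to 8 of the mature strand, and lower them. The mature mouse let-7d-5p (chr13:48536078-48536099, minus strand) and let-7e-5p (chr17:17830366-17830387, plus strand) are given below, 5′ to 3′, from RefSeq with GRCm38.p6 coordinates. They show what the Let7d and Let7e groups share. Capitals mark the seed.
let-7d-5p: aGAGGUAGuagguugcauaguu
let-7e-5p: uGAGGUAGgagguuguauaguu
The 2 strands have the same seed, GAGGUAG, and differ at 3 of 22 positions. The mi699a-5p strand is named only.

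The cells carried transcripts of early embryos: Dppa3, a maternal factor that protects DNA methylation in the zygote, averaged 4972 CPM. None of the listed markers of cumulus, sperm, blood or skin and stroma was among the 7886 genes of the filtered table. Reading of chromosome X and Y genes, which were not otherwise used, put the cells in 2 classes, 30 with Xist at 86.1 CPM or more and 51 with Xist at 12.4 CPM or less and Y-linked transcripts. Let7e 1 held 4 Xist and 2 Y cells, mi699a-5p 4 held 3 and 1, and NC 2 held 4 and 4, so these 3 mouse ids each contain cells of more than one embryo. Where cells of such an id are compared, differences between embryos are counted as differences between blastomeres. Of the other mouse ids, 3 held Xist cells only and 8 held Y cells only. Embryos of the same class cannot be told apart this way, so these ids may also hold cells of more than one embryo. The letter and number that end each sample title were read as plate row and plate column, which the titles do not state. They recur in each treatment, so the same letter stands for different wells. Within a treatment, mouse ids sat one to a plate column, except that ids 3 and 4 of Let7e and of mi699a-5p shared column 3. For the other ids, mouse id and plate column cannot be told apart. By the median of its rank correlation with the other cells (limit 0.649, 3 scaled median absolute deviations under the median of 0.706), 15 cells stood apart from the rest: 1 of Let7d, 4 of Let7e, 6 of mi699a-5p and 4 of NC. Results are given with them and, where a value moves by over 1.5 times or a direction turns, without them.

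Most of the variance lay between cells of the same mouse id. Summed over the 5552 genes, the blastomere level held 93.2% of the variance (jackknife SE over mouse ids 0.913), the mouse id level 6.03% (SE 1.46) and treatment 0.761% (SE 0.908). The treatment share was smaller than its error. Leaving out each mouse id in turn kept the blastomere share between 92.6% and 93.6%. Without the 15 cells that stood apart it was 89.9%, and the mouse id share 9.47%; removing cells that correlate poorly lowers the spread within ids by construction. The median gene had an SD of 1.22 between cells of one mouse id on the log2(CPM + 1) scale, with 0.59 at the tenth percentile and 2.08 at the ninetieth. Counting error of reads made up a median of 3.6% of this variance, a figure that leaves out the loss of molecules before amplification. Pairs of cells with a mouse id in common, which include pairs from different embryos, were slightly more alike than pairs from different ids of a treatment. Their mean correlation over all genes, after removal of treatment means, was 0.006 over 215 pairs against -0.069 over 569 pairs. Between ids 3 and 4 of mi699a-5p, which share plate column 3, it was 0.030 over 16 pairs. Other pairs of mi699a-5p ids had -0.062 over 146 pairs. Between ids 3 and 4 of Let7e it was -0.041 over 8 pairs, against -0.077 over 132 other pairs. The part of plate column in this likeness was not tested.

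**Figure D1:**
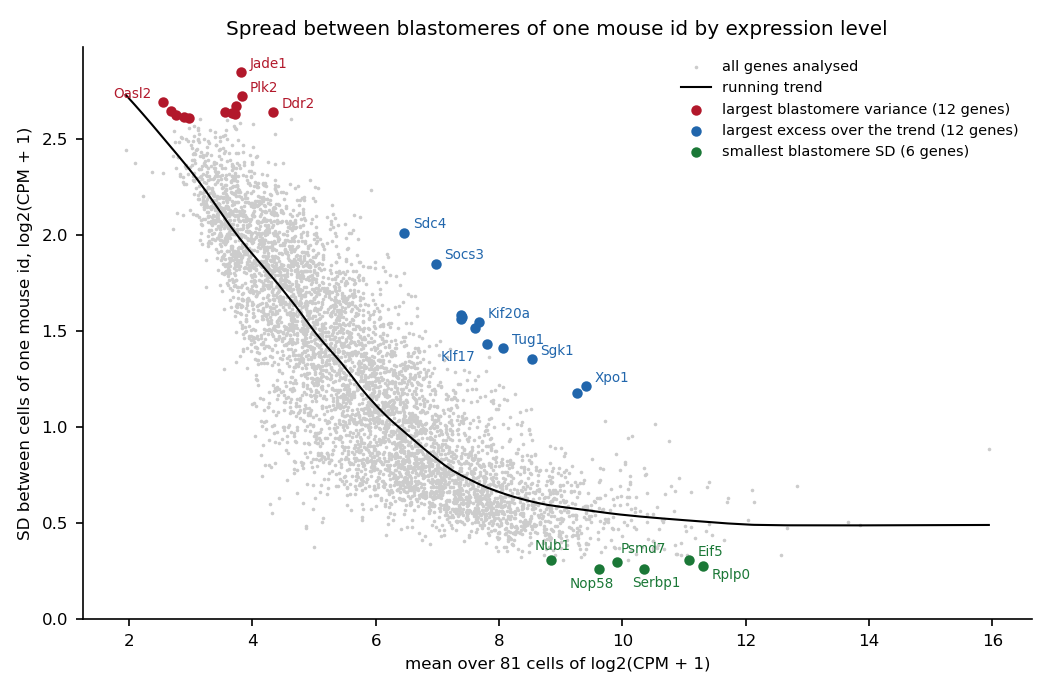
Blastomere SD of each of the 5552 genes (y axis, SD between cells of one mouse id in log2(CPM + 1)) against the mean over 81 cells (x axis, log2(CPM + 1)), with the running trend as a line. Red marks the 12 genes of largest blastomere variance, all low in level, blue the 12 furthest above the trend and green the 6 of smallest SD, and some are labelled.

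The genes with the largest variance between blastomeres were low genes that were read in some cells of a mouse id and absent from others. Among the 12 largest were Jade1, Plk2, Oasl2, Dusp6, Ddr2, Cd24a, Cldn6, Gab1, Mbnl1, Rcan1 and Tnip2. Their SD ran from 2.61 to 2.85, and their means from 23.03 to 72.7 CPM. None of the 12 was called between mouse ids or between plate rows. Among them are signalling genes, such as Dusp6, a phosphatase that switches off ERK, Gab1, an adaptor of receptor kinases, Ddr2, a collagen receptor, and Rcan1, an inhibitor of calcineurin. Cldn6, a tight junction protein, and Cd24a, a surface glycoprotein, are cell surface genes. Jade1 and Gab1 are also known as genes expressed from the paternal copy in early mouse embryos.

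Jade1 (chr3:41555731-41616864), a subunit of the HBO1 histone acetyltransferase complex, had the largest SD, 2.85. It was listed at 0 in 22 of 81 cells and reached 204.5 CPM. Of the 14 mouse ids, 10 held both a cell at 0 and a cell over 100 CPM, and 13 held a cell at 0. Plk2 (chr13:110395046-110400844), a polo-like kinase that p53 can induce, had cells at 0 and cells over 0 within mouse ids of all 4 groups. In the 8 cells of NC 1 it stood at 4.88, 28.4, 48.1, 53.1, 70.0, 199.6, 288.4 and 636.1 CPM. NC 2 holds cells of more than one embryo. There Plk2 was listed at 0 in 4 cells and at 21.7, 65.9, 135.6 and 240.1 CPM in the others. In Let7d 2 only 1 of 6 cells had reads, at 9.25 CPM, whereas the 5 cells of Let7d 1 lay close together at 55.8 to 96.4 CPM. The spread of Plk2 therefore differed from id to id, and its mouse id component missed the threshold (adjusted p 0.0791, limma moderated F test on single cells). Oasl2, an interferon-induced gene, was listed at 0 in 39 of 81 cells and reached 224.6 CPM in NC 1.

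The choice of pseudocount weighs on these genes because of their cells at 0. With 10 in place of 1, the SD of Jade1 was 1.53 and that of Plk2 1.501, and 5 of the 12 genes stayed among the top 12. With 0.1, the SD of Jade1 was 4.23 and that of Plk2 4.07, and 7 of the 12 stayed. Jade1 ranked second under both. Without the 15 cells that stood apart, 8 of the 12 stayed.

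**Figure D2:**
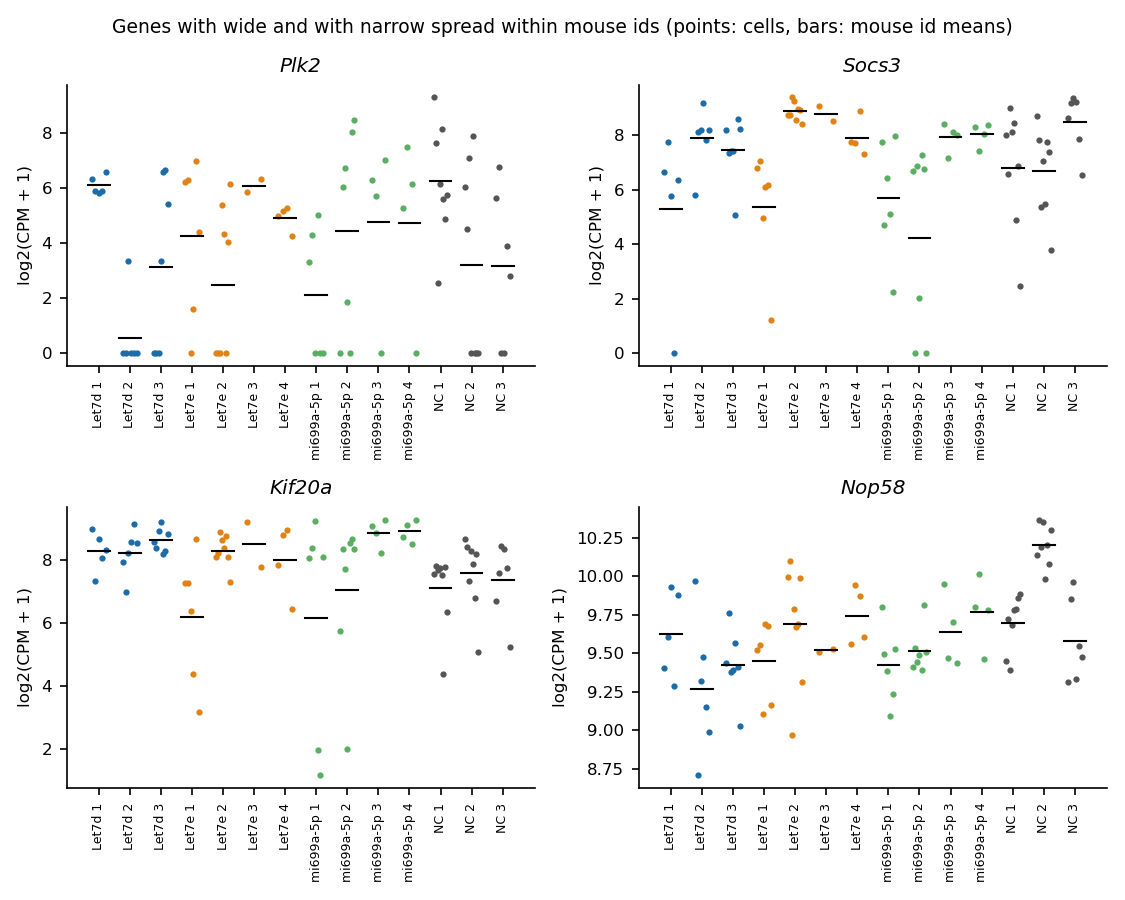
Expression of Plk2, Socs3, Kif20a and Nop58 (y axis, log2(CPM + 1), scaled per gene) in every cell of the 14 mouse ids (x axis, coloured by treatment); bars are mouse id means and the offset within an id only separates points. Plk2 has cells at 0 beside cells over 100 CPM within 6 mouse ids, Kif20a is low in 1 or 2 cells of several ids, and Nop58 stays within 417 to 1320 CPM in all 81 cells.

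Spread falls with expression level, so genes were also ranked by how far their blastomere SD lay above the running trend, among genes read in at least 40 cells. The 12 furthest above it were Socs3, Sgk1, Kif20a, Tug1, Xpo1, Pramel5, Ddah1, Rbsn, Klf17, Slc19a3, Sdc4 and Gulo. They averaged 201.6 to 878.9 CPM and had SDs of 1.18 to 2.01. For each, the log2 of the ratio of SD to trend was at least 1.03. Of the 12, Socs3 and Klf17 were also called between mouse ids, and Tug1, Xpo1 and Slc19a3 between plate rows.

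Socs3 (chr11:117966079-117970047), which dampens JAK and STAT signalling downstream of cytokines such as LIF, had a mean of 229.7 CPM and an SD of 1.85 where the trend gave 0.84. In mi699a-5p 2 it was listed at 0 in 2 cells, at 3.03 CPM in another and at 102.7 to 154.5 CPM in the other 4. In Let7e 2 all 8 cells lay between 343 and 673.5 CPM. Socs3 was thus uneven within some mouse ids and even within others, and its mouse id level was called as well (adjusted p 0.0055, limma). Klf17, a Krüppel-like transcription factor of the early embryo, reached 1373 CPM and fell to 0.865 CPM, both in mi699a-5p 2. Sdc4, a heparan sulfate proteoglycan of the cell surface, spanned 164 to 1527 CPM in NC 1 and 0 to 122.9 CPM in Let7e 2, and its SD of 2.01 was the largest of the 12. Gulo makes vitamin C in mice, Slc19a3 carries thiamine and Ddah1 breaks down dimethylarginine, so genes of small-molecule metabolism are also on the list.

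Part of this list rested on few cells. Without the 15 cells that stood apart, 5 of the 12 SDs were over 1.5 times lower. Gulo had 0.38 against 1.18 with all cells, Kif20a 0.61 against 1.55, Sgk1 0.60 against 1.35, Pramel5 0.87 against 1.52 and Tug1 0.92 against 1.41. Sdc4 (1.97), Rbsn (1.46), Socs3 (1.40), Slc19a3 (1.37), Ddah1 (1.21), Klf17 (1.01) and Xpo1 (0.96) kept most of their spread.

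The 6 genes of smallest SD were well expressed and read in every cell. Nop58, a core protein of the small nucleolar particles that modify ribosomal RNA, had the smallest SD, 0.26, and stood at 670.9 to 944.8 CPM in the 8 cells of NC 1. Serbp1, an RNA-binding protein, had 0.26, Rplp0, a protein of the ribosomal stalk, 0.27, Psmd7, a proteasome subunit, 0.30, Eif5, a translation initiation factor, 0.31 and Nub1, which lowers NEDD8 conjugates, 0.31. Their means ran from 469.7 to 2599 CPM. Without the cells that stood apart, 2 of these 6 were still among the 6 smallest, and Rplp0 had an SD of 0.18, 1.5 times lower.

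The median blastomere SD was 0.51 over 7 mitochondrially encoded genes, 0.54 over 31 proteasome subunits, 0.64 over 73 cytosolic ribosomal proteins, 0.80 over 66 nuclear genes of oxidative phosphorylation (OXPHOS), 0.83 over 27 G2 and M phase genes and 0.84 over 22 S phase genes. It was 0.91 over 18 pluripotency and inner cell mass genes, 1.21 over 18 compaction and polarity genes, 1.34 over 18 let-7 targets and over 9 maternal and oocyte genes, 1.59 over 7 imprinted genes, 1.87 over 10 trophectoderm genes and 2.03 over 19 p53 response genes, beside 1.22 over all genes. Since low genes spread more, the position against the trend is the fairer reading. Above the trend lay 9 of 10 trophectoderm genes, 16 of 22 S phase genes, 12 of 18 compaction genes, 5 of 31 proteasome subunits and 15 of 66 OXPHOS genes. So did 13 of 19 p53 response genes, 31 of 73 ribosomal proteins, 3 of 3 ribosomal RNA genes 3 of 7 mitochondrially encoded genes, 10 of 18 pluripotency genes, 8 of 18 let-7 targets, 15 of 27 G2 and M phase genes, 12 of 23 heat shock proteins, 5 of 7 imprinted genes and 5 of 9 maternal genes, against 2630 of all 5552 genes. Lrp2, an endocytic receptor of the trophectoderm, had an SD of 2.57 and was listed at 0 in 16 cells, while Tead4, the transcription factor that starts the trophectoderm programme, had 0.58 at a mean of 723.3 CPM. Nanog, a transcription factor of pluripotency, averaged 22.7 CPM with an SD of 1.91, and Dppa2, another early embryonic factor, 468.7 CPM with an SD of 0.47. Cdc42, a small GTPase of cell polarity, had an SD of 0.39.

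The differences between cells of a mouse id were not independent from gene to gene. Over the 2587 genes read in every cell, the first principal component of these differences held 21.9% of their sum of squares, the second 5.30% and the third 3.58%. Over all genes the first held 9.38%. At the high end of the first component lay ribosomal proteins, 71 of 73 with a positive correlation (median 0.88), and OXPHOS genes, 43 of the 49 read in every cell (median 0.76). At the low end lay Kif20a, a kinesin of cytokinesis (r = -0.92), the ubiquitin ligase Rfwd3 (-0.87), the translational repressor Pum2 (-0.87), the mitotic kinase Nek2 (-0.87) and Cse1l, a nuclear export receptor for importins (-0.86), which apart from Kif20a were chosen after their values were seen. Heat shock proteins (3 of 18 positive, median -0.56), S phase genes (1 of 17, -0.47), G2 and M phase genes (4 of 17, -0.46), 2-cell genes (0 of 5, -0.49) and pluripotency genes (3 of 11, -0.40) had medians below that of all 2587 genes, -0.14, of which 40.5% had a positive correlation. These correlations are over 81 cells, whose values also define the component, and they only describe it.

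A few cells carried the component. In cell E2 of mi699a-5p 2, the highest of all with a score of 78.9, ribosomal protein genes took 13.7% of reads, where the median of the 81 cells was 4.08%. Kif20a stood at 3.03 CPM there, against 52.2 to 406.3 CPM in the other 6 cells of that id. Rpl27, a ribosomal protein of the large subunit, stood at 1468 CPM, against 121.2 to 289.6 CPM in the others. Next came cells F1 (score 64.5, 13.8% of reads) and E1 (48.4, 8.47%) of mi699a-5p 1, H2 of NC 2 (38.7, 8.55%), and D1 and H1 of Let7e 1 (33.0 and 32.8). The highest score of a Let7d cell was 10.99, in H1 of Let7d 1. Of the 12 cells of highest score, 9 stood apart by rank correlation, and all 12 lay in plate rows D to H, which hold 48 of the 81 cells. None was in row G, where the highest score was 0.54, and the median score of row D was -4.31. The correlation of a gene with the score fell with the length of its exons (Spearman -0.42 across 2587 genes, which are not independent replicates). The 100 genes at the high end had a median of 1560 exon bases and the 100 at the low end 4483, against 4198 over all 2587. The part of plate position and exon length in the component was not tested.

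**Figure D3:**
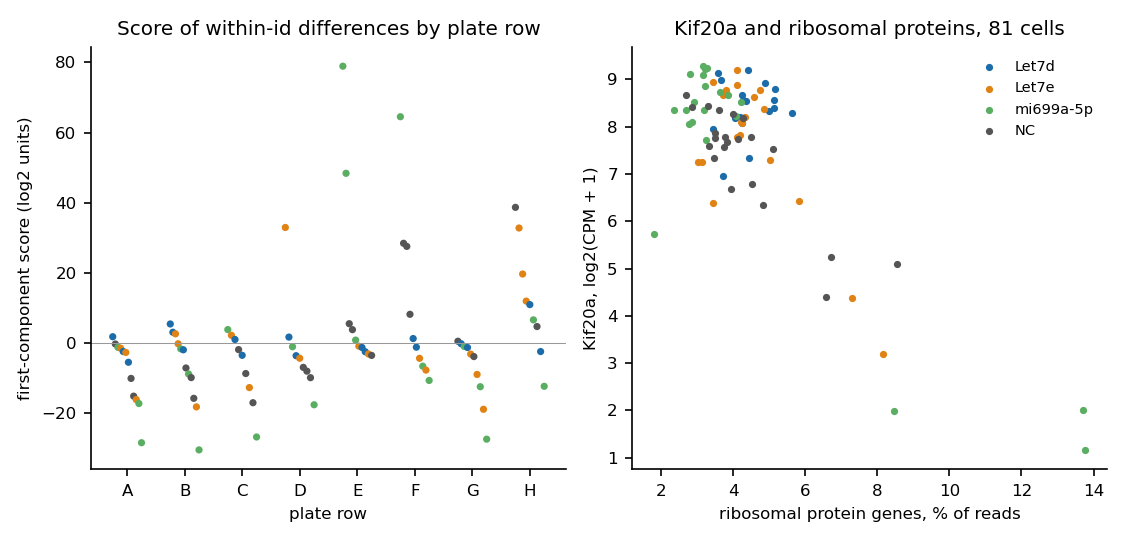
Left, score of each of the 81 cells on the first component of within-id differences (y axis, log2 units) by plate row (x axis; the offset within a row only separates points), coloured by treatment: scores over 10 are found in rows D, E, F and H. Right, Kif20a (y axis, log2(CPM + 1)) against the share of reads in ribosomal protein genes (x axis, %), where the cells richest in ribosomal protein reads hold the least Kif20a.

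Position on the plate, as read from the titles, was tested by itself, in a fit of plate row (A to H) beside mouse id. Each row letter was pooled over the treatments. It called 50 genes, 0.901% of 5552 (limma moderated F test, adjusted p under 0.05; 868 at an unadjusted p under 0.05). Of these, 30 averaged higher in rows A to C than in rows D to H and 20 lower. The first by p, named after their values were seen, were Mkrn1, a ubiquitin ligase that binds RNA (adjusted p 1.98e-05), Lbr, the lamin B receptor of the nuclear envelope (0.000491), and Sun1, which links nucleus and cytoskeleton (0.00176). Lbr lay 0.35 to 0.53 above its mouse id means in rows A to C on the log2 scale and 1.37 below them in row H. Mkrn1 lay 0.86 below in row A, 0.52 above in row C and 0.55 below in row H. The count was not stable: without the cells that stood apart it was 18, of which 9 were among the 50. It was 19 without Let7e 1 or NC 1, 21 without mi699a-5p 1, 22 without NC 2, 27 without Let7d 1 or NC 3 and 33 without Let7e 2, and 75, 83 and 91 without Let7d 2, Let7d 3 and mi699a-5p 2. In Let7e 1, NC 2 and mi699a-5p 4, plate rows also separate cells of different embryos.

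Between mouse ids of one treatment, 292 genes differed beyond the spread of their cells, 5.26% of 5552 (limma moderated F test with 10 and 67 degrees of freedom before moderation, adjusted p under 0.05; 1155 at an unadjusted p under 0.05). The median gene had 4.64% of its variance at this level. By edgeR on the counts of single cells the number was 133, or 2.4%, of which 112 were among the 292. Cells are the error here, so the test asks whether cells of an id are alike, and any effect of the plate column is included. Without the 15 cells that stood apart the number was 827, with 270 of the 292 among them. Without the 3 mouse ids that hold Xist and Y cells it was 82, with 75 of the 292. It was 173 without NC 3, 175 without Let7e 1 and 177 without Let7d 3.

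**Figure D4:**
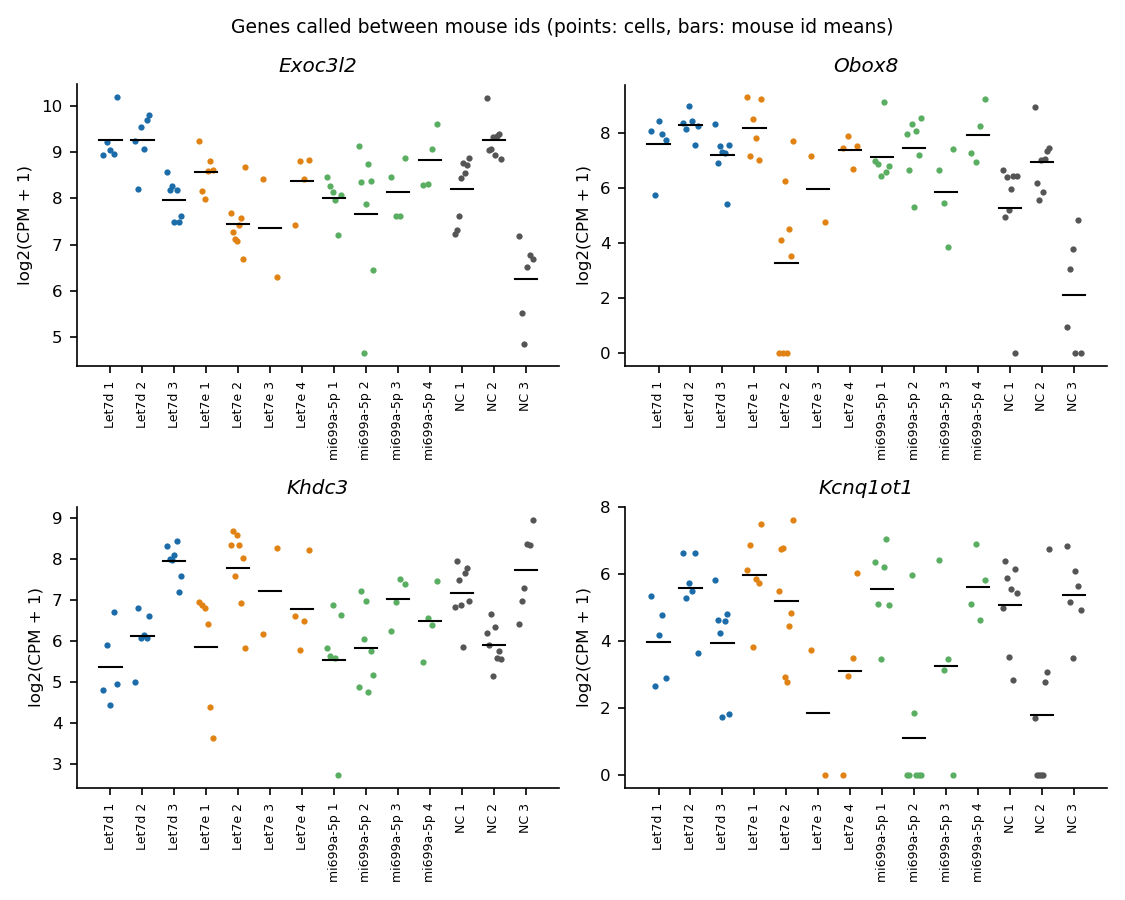
Expression of Exoc3l2, Obox8, Khdc3 and Kcnq1ot1 (y axis, log2(CPM + 1), scaled per gene) in every cell of the 14 mouse ids (x axis, coloured by treatment); bars are mouse id means. NC 3 is lowest for Exoc3l2 and Obox8, and Kcnq1ot1 has its lowest means in mi699a-5p 2, NC 2 and Let7e 3 (2 cells).

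The 12 called genes with the largest mouse id share held 47.9% to 57.4% of their variance between ids. Exoc3l2 (chr7:19463331-19496762), a relative of an exocyst subunit of vesicle traffic, came first with 57.4% (adjusted p 7.41e-06, limma). Its mean log2(CPM + 1) was 9.27, 9.26 and 7.98 in Let7d 1 to 3, 8.57, 7.44, 7.37 and 8.37 in Let7e 1 to 4, 8.02, 7.66, 8.15 and 8.82 in mi699a-5p 1 to 4, and 8.19, 9.27 and 6.27 in NC 1 to 3. The lowest cell of NC 2, at 464.1 CPM, was above the highest of NC 3, at 145.0 CPM. Each treatment thus held high and low ids, and the NC ids spanned the whole range.

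Obox8 (chr7:14331436-14333557), a homeobox gene of a family with many near copies whose reads may be shared between members, had 49.9% of its variance between ids. Its id means were 7.59, 8.29 and 7.20 in Let7d, 8.18, 3.26, 5.97 and 7.40 in Let7e, 7.14, 7.45, 5.85 and 7.93 in mi699a-5p and 5.27, 6.94 and 2.11 in NC. In Let7e 2, 3 of 8 cells were listed at 0, whereas the cells of Let7e 1 lay between 129.1 and 631.5 CPM. Khdc3 (chr9:73101836-73104438), a maternal protein of the subcortical complex of the egg, had 48.0%. Its id means were 5.36, 6.11 and 7.93 in Let7d, 5.84, 7.79, 7.21 and 6.77 in Let7e, 5.54, 5.83, 7.02 and 6.47 in mi699a-5p and 7.17, 5.89 and 7.72 in NC. The 7 cells of Let7d 3 (144.1 to 341.7 CPM) did not overlap the 5 of Let7d 1 (20.8 to 102.7 CPM).

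Kcnq1ot1 (chr7:143203458-143296549) is an imprinted antisense RNA made from the paternal chromosome. Reads of the overlapping Kcnq1 gene cannot be told apart from it where strand is not recorded. Its id means were 3.97, 5.57 and 3.95 in Let7d, 5.98, 5.21, 1.87 and 3.12 in Let7e, 5.54, 1.12, 3.25 and 5.62 in mi699a-5p and 5.09, 1.79 and 5.36 in NC. In mi699a-5p 2, 5 of 7 cells were listed at 0, against none of 6 in mi699a-5p 1. It was not called by edgeR on single-cell counts (adjusted p 0.555). Snrpn, also expressed from the paternal copy, was called too (adjusted p 0.0262, limma) and was lowest in NC 2, at 3.15. It was not called without NC 2 (adjusted p 0.721, limma), without NC 1 (0.194) or without NC 3 (0.0616), nor by edgeR (0.432).

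Ppp1r16b, a regulatory subunit of protein phosphatase 1, had 53.6% of its variance between ids, and its adjusted p was 0.194 without NC 3, where its mean of 1.64 was the lowest. Bod1l, which protects stalled replication forks, had 51.1%, and its adjusted p was 0.0767 without Let7e 1 and 0.330 without the 3 ids of mixed cells. Pnp, the purine nucleoside phosphorylase, had 52.8% and may share reads with a near copy. Dnaja1 (50.9%) and Dnajb14 (47.9%) are co-chaperones of HSP70. Zfp644 (50.5%) is a zinc finger protein, Fcgr3 (50.03%) a receptor for immunoglobulin G, and Gm5612 (48.3%) is a predicted gene.

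Among gene groups, 7 of 18 pluripotency and inner cell mass genes were called between mouse ids: Tbx3, Tfcp2l1, Klf17, Pou5f1, Klf5, Tdgf1 and Utf1. Of 18 let-7 targets 4 were called, of 7 mitochondrially encoded genes 4, of 3 ribosomal RNA genes 3, of 23 heat shock proteins 5, of 10 trophectoderm genes 2 (Hand1 and Cldn4), of 18 compaction genes 2 (Wwtr1 and Rhoa), of 27 G2 and M phase genes 2 (Aurka and Cdc20) and of 19 p53 response genes 2 (Ei24 and Ccng1). Counts in large housekeeping groups were at or under the 5.26% of all genes: 1 of 73 ribosomal proteins (Rpl4), 1 of 66 OXPHOS genes (Cyc1), 1 of 31 proteasome subunits (Psmd2) and 0 of 22 S phase genes. Many of these calls were lost without the 3 ids of mixed cells. Without them, 1 of the 7 pluripotency genes (Utf1), 0 of the 4 mitochondrially encoded and 0 of the 3 ribosomal RNA genes, 1 of the 5 heat shock proteins and 0 of the 2 G2 and M phase genes were still called. So were both trophectoderm and both p53 response genes, 1 of the 2 compaction genes (Wwtr1) and 2 of the 4 let-7 targets (Hand1 and Trim71). Without Let7e 1 alone it was 4 of the 7 pluripotency genes, 0 of the 4 mitochondrially encoded and 0 of the 3 ribosomal RNA genes. By edgeR it was 4 of 7, 4 of 4 and 3 of 3. Utf1 was not among those 4, so no pluripotency gene was called both without the mixed ids and by edgeR. Wwtr1 (adjusted p 0.154) and Ccng1 (0.432) were not called by edgeR either. Tbx3, a transcription factor that sustains pluripotency, averaged 8.16, 8.47 and 9.15 in Let7d 1 to 3, 7.14, 9.82, 9.66 and 8.35 in Let7e 1 to 4, 8.25, 7.57, 8.95 and 8.62 in mi699a-5p 1 to 4, and 8.54, 7.61 and 9.46 in NC 1 to 3 (log2 CPM, adjusted p 0.000751, limma). It was called between plate rows as well (adjusted p 0.0193). Pou5f1, the core pluripotency factor, was highest in NC 3, at 8.32, and lowest in mi699a-5p 2, at 6.55 (adjusted p 0.0318). The mitochondrial transcript mt-Nd4 was highest in Let7e 1, at 11.88, and lowest in Let7d 3, at 10.14 (adjusted p 0.0046).

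The called let-7 targets were Hand1, Trim71, Cdc25a and Myc, and their id means crossed the treatments. Hand1, a transcription factor of trophoblast, averaged 6.95, 7.49 and 5.87 in Let7d 1 to 3, 6.19, 2.90, 4.27 and 7.19 in Let7e 1 to 4, 5.19, 4.94, 7.22 and 7.07 in mi699a-5p 1 to 4, and 5.78, 7.62 and 4.87 in NC 1 to 3 (adjusted p 0.000286, limma). Trim71, an RNA-binding ubiquitin ligase and classic let-7 target, averaged 8.91, 8.91 and 7.25 in Let7d, 7.66, 7.10, 7.13 and 8.32 in Let7e, 7.83, 7.94, 8.60 and 8.49 in mi699a-5p, and 8.18, 8.68 and 7.36 in NC (adjusted p 0.00123). Myc was listed at 0 in all 7 cells of mi699a-5p 2 and at 33.6 to 150.9 CPM in the 4 cells of mi699a-5p 4. For Hand1 the lowest mean was in Let7e 2 and the highest in NC 2, for Trim71 the lowest in Let7e 2 and the highest in Let7d 1 and 2, and for Myc the lowest in mi699a-5p 2 and the highest in Let7e 4.

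The called genes were also summarized by principal components. These genes were picked for differing between these same ids, so the components describe them and test nothing. The first principal component of their id deviations, computed within each treatment, held 29.2% of the sum of squares and the second 19.5%. Most of the sum of squares thus lay outside the first component, whose scores follow. Scores were high in NC 3 (11.5), Let7e 2 (10.99), Let7d 3 (9.85), Let7e 3 (7.24) and mi699a-5p 2 (6.26), and low in NC 2 (-9.92), Let7e 1 (-9.77), Let7e 4 (-8.46) and Let7d 2 (-5.74). Toward the high end lay Pou5f1, Tbx3, Khdc3, Cyc1 and Hsp90ab1, and toward the low end Exoc3l2, Hand1, Trim71, Imp3 and Kif1b, chosen after their values were seen. Other called members of the same lists went the other way. The pluripotency gene Klf17 deviated from its treatment mean by -1.29 in NC 3 and by 1.17 in NC 2. The trophectoderm gene Cldn4 deviated by 0.45 in NC 3 and by -0.77 in NC 2, opposite to Hand1 (-1.22 and 1.53). The 5 ids of high score held Y cells in 4 cases and Xist cells in 1, and they sat in plate columns 2 and 3, which also hold low-scoring ids.

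The ids that hold cells of more than one embryo let cells of one plate column be compared by class. The classes sat in different plate rows. In Let7e 1 the Xist cells were in rows A to D and the Y cells in G and H. In NC 2 the Y cells were in B to E and the Xist cells in A and F to H. In mi699a-5p 4 the Y cell was in E and the Xist cells in F to H. Class and plate row cannot be told apart here. In NC 2 the mean correlation over all genes was 0.079 for 12 pairs of the same class and -0.061 for 16 pairs of different class. In Let7e 1 it was 0.059 for 7 pairs and -0.030 for 8, and in mi699a-5p 4 0.146 for 3 pairs and 0.134 for 3. Cells of the same class were more alike in the first 2 ids and not visibly so in the last. Splitting these 3 ids by class gave 322 genes called between ids, with 226 of the 292 among them.

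Treatment, tested on counts summed per mouse id, called 0 genes by edgeR (0% of 5552; 364 at an unadjusted p under 0.05, lowest adjusted p 0.610) and 14 by the DESeq2 likelihood ratio test (0.252%). The smallest edgeR p-values were those of Sh3d21, Eif2d, a translation initiation factor, Prdx6, a peroxiredoxin, and Cops7a, a subunit of the COP9 signalosome, and DESeq2 called all 4. Eif2d averaged 8.10 ± 0.24 (SD over mouse ids, log2 CPM, n = 3) in Let7d, 7.38 ± 0.42 (n = 4) in Let7e, 6.504 ± 0.20 (n = 4) in mi699a-5p and 7.11 ± 0.28 (n = 3) in NC. Prdx6 averaged 9.10 ± 0.21 in Let7d, 8.28 ± 0.29 in Let7e, 8.37 ± 0.34 in mi699a-5p and 9.13 ± 0.36 in NC. Both genes were picked for their small p-values, so group means further apart than the SD between ids follow from the choice. By edgeR neither passed the adjustment over all genes (adjusted p 0.610).

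No difference in blastomere spread between the microRNA groups and NC passed its test. Spread was taken per mouse id as the root of the mean variance between its cells, in log2(CPM + 1) over 5552 genes. It was 1.36 ± 0.06 in Let7d (SD, n = 3 mouse ids), 1.33 ± 0.12 in Let7e (n = 4), 1.38 ± 0.37 in mi699a-5p (n = 4) and 1.34 ± 0.13 in NC (n = 3). The single ids had 1.33, 1.43 and 1.33 in Let7d 1 to 3, 1.45, 1.41, 1.27 and 1.203 in Let7e 1 to 4, 1.55, 1.79, 1.21 and 0.95 in mi699a-5p 1 to 4, and 1.26, 1.49 and 1.26 in NC 1 to 3. All groups overlapped, and the widest and the narrowest id were both of mi699a-5p. By exact two-sided permutation over mouse ids, the difference from NC was 0.02 for Let7d (p = 0.70, smallest possible 0.10), -0.003 for Let7e (p = 1) and 0.04 for mi699a-5p (p = 0.914, smallest possible for both 0.0286). The overall exact permutation test gave p = 0.991, and all 4 adjusted values were 1.

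Without the 15 cells that stood apart the spread was 1.33 ± 0.002 in Let7d, 1.22 ± 0.09 in Let7e, 1.18 ± 0.21 in mi699a-5p and 1.25 ± 0.08 in NC. The difference of mi699a-5p from NC then turned to -0.07 (exact permutation p = 0.686). In mi699a-5p 2, 4 of 7 cells were among those left out. The widest id, mi699a-5p 2, and the narrowest, mi699a-5p 4, had similar median reads per cell, 2312759 and 2197128.

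**Figure D5:**
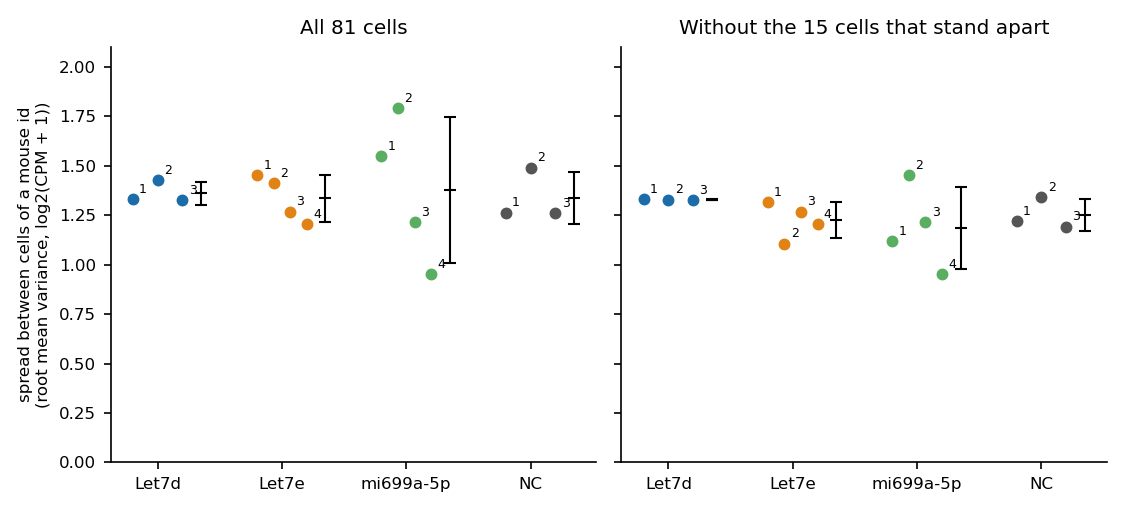
Blastomere spread of each mouse id (y axis, root mean variance between its cells in log2(CPM + 1)) by treatment (x axis), with all 81 cells on the left and without the 15 that stood apart on the right. Points are mouse ids, numbered as in the labels, and bars are the mean ± SD over ids; mi699a-5p spans 0.95 to 1.79 on the left, where all groups overlap. On the right the 3 Let7d ids, at 1.33, lie above the 4 Let7e ids, at 1.11 to 1.32, and both overlap NC.

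Gene by gene, a test of the absolute deviation of cells from their mouse id mean called 0 genes over the 4 groups (limma, 0% of 5552; 579 at an unadjusted p under 0.05, lowest adjusted p 0.189). It also called 0 genes (0%) in Let7d against NC (207 unadjusted), in Let7e against NC (167) and in mi699a-5p against NC (8.88% of genes unadjusted). The smallest p-values against NC belonged to Nkiras1, Efna1, Egln2 and Mpv17 for Let7d, to Pigx, Pola2, Acpp and Ppfibp2 for Let7e, and to Miip, Shmt1, Itfg2 and Slc46a1 for mi699a-5p. Shmt1, a folate enzyme, had a mean deviation 1.41 ± 0.36 (SE) larger in mi699a-5p than in NC on the log2 scale, with an adjusted p of 0.512. Efna1, a ligand of Eph receptors, differed by -1.74 ± 0.51 in Let7d against NC, with an adjusted p of 0.996 (limma). The 4-group count depended on single mouse ids: it was 135 without mi699a-5p 3, 112 without mi699a-5p 4, 1 without Let7d 3 and 0 in the other leave-outs. It was 296 without the 3 ids that hold cells of more than one embryo, among them mi699a-5p 4 and NC 2. The mi699a-5p contrast gave 13 without mi699a-5p 3 and 8 without mi699a-5p 4.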

How the data were processed

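The deposited table holds raw read counts per gene and cell, which the authors had filtered on CPM per its name. Per the submitters' processing notes, STAR and GRCm38.p6 were used; the counting program, the filter's limit and the treatment of strand are not given in the sources used here. The deposited RPKM table was not used. Identifiers were matched to a GENCODE annotation of GRCm38, with 7884 of 7886 matched.

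Counts were divided by column sums to CPM, and variance components of log2(CPM + 1) came from the method of moments for unbalanced nested groups. Genes between mouse ids, plate rows and spread were tested with limma 3.58.1 (R 4.3.3), treatment with the edgeR 4.0.16 quasi-likelihood test on sums per mouse id. DESeq2 1.42.0, edgeR on single cells and REML in lme4 1.1.37 were alternatives. P-values were adjusted by Benjamini-Hochberg over 5552 genes at 0.05. The code was tested on simulated data. Cells are not replicates of a treatment, p-values measure the spread between mouse ids or cells, and well names recur in each treatment, so a batch shared with a treatment cannot be told apart from it. Alternatives were other scalings, pseudocounts and CPM limits, thinning to 1575609 reads per cell, covariates, splitting or leaving out mixed ids, and leaving out each id; leaving out cells that stand apart, and all alternatives for plate rows, were chosen after seeing the data.

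The members and gene lists were chosen with earlier results of these data known. Named genes were the 12 of largest blastomere variance, the 12 of largest SD over the trend (read in at least 40 cells), the 6 of smallest SD, the 12 called genes of largest mouse id share, the 4 of smallest p for treatment and for each spread contrast, and of each list the extremes and up to 3 called between ids. Some genes that met these rules are not reported here.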

Additional observations from a re-analysis of the deposited data

Results flagged for a closer look

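Within mouse ids of 4 to 10 cells, 78 sets of per-cell values were checked for a single cell far from the rest, and 11 stood out. Chance gives about 1 in 20 sets. By the score on the first component of within-id differences, these were cell H2 of Let7e 2, the highest of 8 cells at 11.98, cell E2 of mi699a-5p 2, the highest of 7 at 78.9, cell C3 of mi699a-5p 3, the highest of 4 at 3.86, cell F1 of NC 1, the highest of 8 at 27.6, and cell H2 of NC 2, the highest of 8 at 38.7. By median rank correlation with other cells, cell B2 of Let7d 2 was the lowest of 6 at 0.627 and cell F1 of NC 1 the lowest of 8 at 0.632. By total reads, cell F2 of Let7d 2 was the lowest of 6 at 2327584 and cell F1 of mi699a-5p 1 the lowest of 6 at 1608320. By genes with a read, cell C2 of Let7e 2 was the lowest of 8 at 5562 and cell H3 of Let7e 4 the highest of 4 at 7451.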

How the results depend on the processing

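Blastomeres held most of the variance under every setting run. The blastomere share was 91.4% at pseudocount 10, 94.3% at 0.1, 88.2% for genes of mean CPM 100 or more, 90.2% for genes read in every cell, 89.9% without the cells that stood apart, 90.6% with plate row as covariate and 91.2% by REML. The mouse id share was 9.67% at mean CPM 100 or more, 7.96% for genes read in every cell, 9.47% without the cells that stood apart and 9.09% with plate row. The treatment share was 2.09% at mean CPM 100 or more, 1.86% for genes read in every cell, 1.95% without the ids of mixed cells and 2.36% by REML.

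Mouse id genes numbered 82 without the ids of mixed cells, 827 without the cells that stood apart, 133 by edgeR and 173 to 431 on leaving out single ids. Plate row genes numbered 18 without the cells that stood apart, 124 for genes read in every cell and 19 to 91 on leaving out ids. Treatment genes numbered 14 by DESeq2. Spread genes over the 4 groups numbered 296 without the ids of mixed cells and 0 to 135 on leaving out ids. In mi699a-5p against NC they numbered 1 with no CPM limit and 0 to 13 on leaving out ids.

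The small differences in spread changed sign under some settings. Let7d minus NC was -0.0108 at pseudocount 10, -0.11 at mean CPM 100 or more, -0.0809 for genes read in every cell, -0.0258 as 1 minus the Spearman correlation and -0.0161 to 0.0993 on leaving out ids. Without the ids of mixed cells it was 0.0993 (exact permutation p = 0.10, the smallest that so few ids allow). Let7e minus NC was 0.0189 at pseudocount 0.1, 0.0340 without the ids of mixed cells and -0.0425 to 0.0738 on leaving out ids. The difference of mi699a-5p from NC was -0.0667 without the cells that stood apart, 0.256 without the ids of mixed cells (exact permutation p = 0.40) and -0.10 to 0.18 on leaving out ids. The causes were not tested.

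Of 18 pairs of same-numbered mouse ids, 2 correlated over 0.1 (range -0.186 to 0.215, median 0.038). Pairs of unlike number were not compared, so whether the numbers pair samples was not tested. With the number as a replicate block, 17 spread genes were called over the 4 groups. Blocked differences in spread use numbers 1 to 3 alone, so they equal those without the ids numbered 4: 0.0411 for Let7e minus NC and 0.180 for mi699a-5p minus NC. Depth limits low genes most, and reads without molecular identifiers cover counting error only.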

Other observations

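In mouse ids that hold both Xist and Y cells, some genes differed by class. These genes were picked after their values were seen, and no test was made. Ccng1, a cyclin induced by p53, stood at 119.9 to 223.2 CPM in the 4 Y cells of NC 2 and at 0 to 31.1 CPM in the 4 Xist cells. In Let7e 1 it stood at 182.6 and 550.9 CPM in the 2 Y cells and at 0.346 to 22.1 CPM in the 4 Xist cells. In mi699a-5p 4 the Y cell, at 85.0 CPM, lay among the Xist cells at 78.65 to 254.0 CPM. Ccng1 averaged low in the Xist-only ids Let7d 2 (1.34 on the log2 scale) and mi699a-5p 1 (3.87), though not in Let7d 3 (5.46).

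Kcnq1ot1 was listed at 0 in all 4 Y cells of NC 2 and had 2.299 to 106.6 CPM in the 4 Xist cells, while in Let7e 1 both classes had reads. Khdc3 stood at 11.3 and 19.9 CPM in the Y cells of Let7e 1 and at 83.8 to 122.7 CPM in the Xist cells, with overlapping classes in NC 2. Such cells of one mouse id came from different embryos and sat in different plate rows. These values are therefore differences between embryos and between rows as well as between classes.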
